A study of Arabidopsis thaliana with 12 samples.

Results

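Roots of the Arabidopsis thaliana tga1/tga4 double mutant were compared with roots of the wild type Col-0 after both had been given nitrate. The comparison rests on 6 of the series' 12 samples, chosen by their titles: 3 samples of tga1/tga4 and 3 of Col-0, all treated with 5 mM KNO3 for 2 h. The other 6 samples are the same genotypes given 5 mM KCl for 2 h, 3 of each, and they are used here for the spread between samples and for values set beside those under KNO3. All seedlings were 15 days old, had been raised in hydroponic culture with ammonium succinate as the nitrogen source, and gave whole roots for RNA. RNA was measured on single-channel Affymetrix arrays, where a probe set is a group of short probes that reports the transcripts of a gene. The labels name the mutated genes but no allele, and the 12 samples hold neither single mutants nor a complemented line. The replicates are labelled independent, but the labels do not say whether that means separate seedlings, cultures or days. The p-values therefore cover only the variation among these samples, part of which may be technical.

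TGA1 and TGA4 encode closely related transcription factors of the bZIP class. TGA factors bind DNA elements with the core TGACG, and in Arabidopsis they are known both from defence signalled by salicylic acid and, for TGA1 and TGA4, from the response of roots to nitrate. Nitrate is a nutrient and also a signal: within minutes to hours it raises genes for its own uptake and reduction, for the supply of reducing power and for further transcription factors. The comparison asks which transcripts differ between roots with and without this pair of factors while the nitrate response is under way.

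Values were on a log2 scale, so a difference of 1 is 2-fold, and every difference is tga1/tga4 minus Col-0. Of 22746 probe sets, 13513 name 1 gene, 503 name several and 8730 have no entry in the gene table used here. The last are given by their identifier alone, and which probe sets measure TGA1 and TGA4 themselves was not analysed here. A probe set was called at an adjusted p under 0.05 (limma on all 12 samples, Benjamini-Hochberg over all 22746). Unless stated, the replicate number was not a block in the fit.

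Under KNO3, 3 probe sets were lower in tga1/tga4 roots and 0 were higher, a share called of 0.0132%. None of the 3 has a gene name in the table, so the named genes hold no call. Any of the 3 may measure TGA1 or TGA4, the mutated genes themselves, which was not tested. For each of the 3 the groups did not overlap, which the call favours, so all 3 same-numbered pairs have the same direction. All 3 were also called lower under KCl, where 4 probe sets (0.0176%) were called in all.

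Probe set 247199_at had 1.64, 1.43 and 1.12 in tga1/tga4 roots under KNO3, against 7.27, 7.61 and 7.26 in Col-0. The groups were far apart, and the mutant values lay below the medians of their own samples, which were 2.32 to 2.36. The difference was -5.98 ± 0.24 (SE, n = 3 each; limma adjusted p = 2.27e-07), or 63.1-fold lower, but a value this low is not shown to exceed background, so the fold is uncertain. Under KCl the same probe set had 1.48, 1.03 and 0.79 in tga1/tga4 and 5.08, 4.61 and 4.17 in Col-0, a difference of -3.52 (limma adjusted p = 0.000178). In Col-0 it rose by 2.76 ± 0.24 with nitrate (limma adjusted p = 2.62e-05), whereas the change in the mutant was 0.30 (limma adjusted p = 0.66). The test of the difference between these responses gave -2.46 ± 0.34, which did not pass without the replicate number as a block (limma adjusted p = 0.145) and passed with it (limma adjusted p = 0.00191).

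Probe set 250463_at had 0.76, 0.79 and 1.05 in tga1/tga4 roots under KNO3, against 5.11, 5.29 and 5.50 in Col-0. Its difference was -4.43 ± 0.16 (SE, n = 3 each; limma adjusted p = 1.54e-07), or 21.6-fold lower, with mutant values again under the sample medians and the fold uncertain for that reason. Under KCl it had 0.43, 0.84 and 0.59 in tga1/tga4 and 2.93, 2.45 and 2.63 in Col-0, a difference of -2.05 (limma adjusted p = 0.000445). Both salts thus show the mutant samples below every Col-0 sample. With nitrate the probe set rose by 2.63 ± 0.16 in Col-0 (limma adjusted p = 1.35e-06), against a change of 0.25 in the mutant (limma adjusted p = 0.556). The genotype difference under KNO3 was larger than that under KCl by -2.38 ± 0.23 (limma adjusted p = 0.00731), the only 1 of 22746 probe sets (0.0044%) to pass this test, or 2 with the replicate block, the other being 247199_at. For both, the size of this difference is uncertain too, because the mutant values are not shown to exceed background under either salt.

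Probe set 260002_at was measured well above the sample medians in both genotypes, at 4.31, 4.14 and 4.74 in tga1/tga4 roots under KNO3, against 6.26, 6.15 and 6.52 in Col-0. Its difference was -1.92 ± 0.19 (SE, n = 3 each; limma adjusted p = 0.0025), or 3.77-fold lower. The groups did not overlap, and the same-numbered pairs differed by -1.95, -2.02 and -1.78. Under KCl the values were 3.73, 4.34 and 4.01 in tga1/tga4 and 5.84, 5.75 and 5.66 in Col-0, a difference of -1.72 (limma adjusted p = 0.00766). The test of the difference between the salts gave -0.19 ± 0.26 (limma adjusted p = 0.999). The call was lost when only the 6 KNO3 samples were fitted without a block (limma adjusted p = 0.0954) and without the KNO3 samples numbered 1 (limma adjusted p = 0.195), though the difference itself stayed at -1.92 and -1.90.

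A further probe set, 252534_at, was called when the replicate number was a block (limma adjusted p = 0.00637) and not without it (limma adjusted p = 0.372). It had 1.24, 1.41 and 2.30 in tga1/tga4 roots under KNO3, against 3.13, 3.63 and 3.61 in Col-0, a difference of -1.81 ± 0.30 (SE, n = 3 each). Its mutant values lay under the sample medians. Under KCl it had 1.00, 0.70 and 0.85 in tga1/tga4 and 3.37, 2.32 and 2.74 in Col-0, a difference of -1.96 with the same dependence on the block (limma adjusted p = 0.144 without it and 0.00292 with it).

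**Figure D1:**
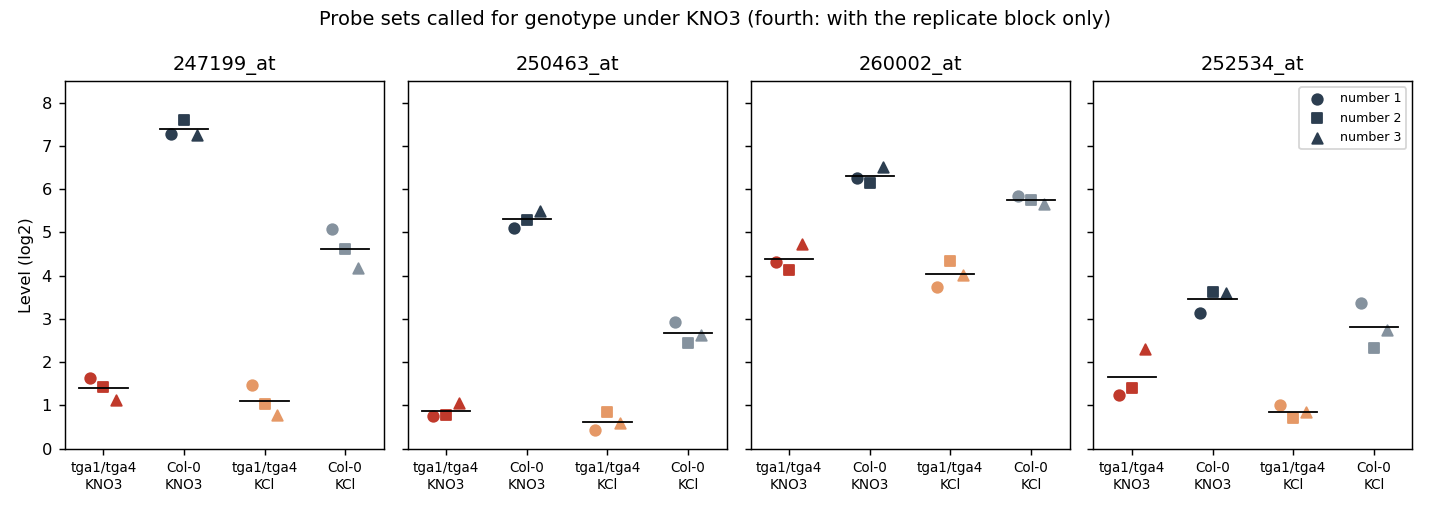
Levels (log2, vertical axis) of the 4 probe sets in each of the 12 samples; from left to right in each panel tga1/tga4 and Col-0 under KNO3, then tga1/tga4 and Col-0 under KCl, with a line at each mean of 3 and the symbol giving the replicate number. In every panel the 3 tga1/tga4 samples lie below the 3 Col-0 samples under both salts, and the Col-0 levels of 247199_at and 250463_at are higher under KNO3 than under KCl.

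The rest of the array differed little between the genotypes. The median difference over all 22746 probe sets was -0.001, the middle 50% lay between -0.09 and 0.10, and 99% were within 0.50 of 0. At an unadjusted p under 0.05 stood 397 probe sets (1.75%), or 1092 (4.80%) with the replicate block. The 3 tga1/tga4 samples lay below the 3 Col-0 samples for 812 probe sets (3.57%) and above them for 731 (3.21%). The 95% interval of the difference had a median half-width of 0.36, and it lay within 2-fold in either direction for 21726 probe sets (95.5%). The share was 92.3% for the brighter 50% of probe sets and 98.8% for the dimmer 50%. Dim values are not shown to exceed background, so there a narrow interval does not exclude a 2-fold change of the transcript. For most of the brighter probe sets a difference of 2-fold or more was outside the interval. Differences smaller than an interval's half-width could not be told from 0.

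**Figure D2:**
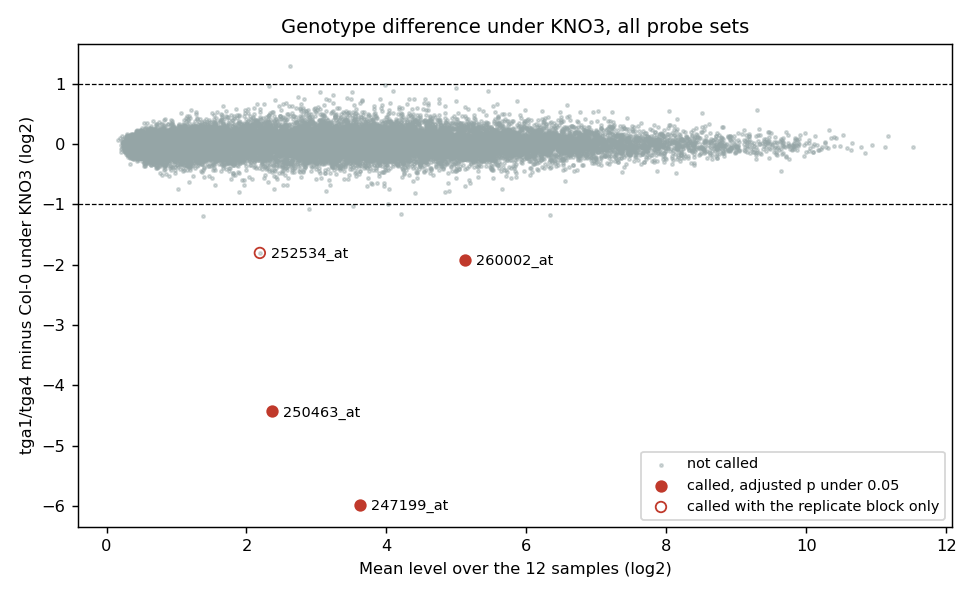
Difference under KNO3 (tga1/tga4 minus Col-0, log2, vertical axis) against the mean level over the 12 samples (log2, horizontal axis), a point for each of 22746 probe sets; dashed lines mark 2-fold. The 3 called probe sets and 252534_at lie below the cloud, and 11 points lie at or beyond 2-fold, 10 lower and 1 higher.

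Of the 11 probe sets with a difference of 2-fold or more, 3 were called and 4 name a single gene. The only higher one was 255812_at, with 1.67, 2.08 and 3.20 in tga1/tga4 roots under KNO3, against 0.99, 0.78 and 1.31 in Col-0 (1.29; limma adjusted p = 1). All of these but 3.20 lay under the sample medians. Under KCl it had 5.33, 4.04 and 4.07 in tga1/tga4 and 3.99, 1.84 and 2.15 in Col-0. That difference of 1.82 was called with the block only (limma adjusted p = 0.839 without it and 0.0168 with it). Among those of the 11 without a gene name, 260624_at had 4.42, 4.34 and 4.46 in tga1/tga4 under KNO3 and 5.72, 4.96 and 5.79 in Col-0 (-1.08; limma adjusted p = 0.408). The 3 mutant values of 260624_at were close together and all under Col-0. Under KCl it had 0.83, 0.98 and 0.98 in tga1/tga4 and 0.81, 0.84 and 0.59 in Col-0, all under the sample medians and not shown to exceed background, so a genotype difference could not be measured there. From these low values it rose with nitrate by 3.47 in tga1/tga4 (limma adjusted p = 4.11e-07) and by 4.75 in Col-0 (limma adjusted p = 2.86e-08). The test of the difference between these rises did not pass (-1.27 ± 0.27; limma adjusted p = 0.999, or 0.363 with the block). The genotype difference of 260624_at under KNO3 was called without Col-0 KNO3 replicate 2 (-1.35; limma adjusted p = 0.00299). Probe set 260693_at had 5.07, 6.81 and 4.88 in tga1/tga4 and 6.39, 7.49 and 6.40 in Col-0 (-1.17; limma adjusted p = 1, or 0.536 with the block). Its groups overlap, but the mutant was lower in every same-numbered pair, by -1.32, -0.67 and -1.53. These probe sets were chosen after their values were seen.

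No gene with a name passed, so the genes with the largest differences at an unadjusted p under 0.01 are given as not called. There were 29 such single-gene probe sets, 17 with a lower and 12 with a higher mean in tga1/tga4, among 51 of all probe sets (0.224%). The 10 largest differences each way are described here. In all 20 the groups did not overlap, which the choice by p favours.

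The lowest was AT2G28780, with 1.06, 2.62 and 1.71 in tga1/tga4 roots under KNO3, against 2.72, 3.14 and 3.13 in Col-0. Its difference was -1.20 ± 0.29 (SE, n = 3 each; limma adjusted p = 1), and the replicates of the mutant spread over more than the difference. The gene rose with nitrate in both genotypes, by 1.58 in tga1/tga4 (limma adjusted p = 0.00743) and by 2.51 in Col-0 (limma adjusted p = 0.000248). Its KCl values, 0.15 to 0.28 in tga1/tga4 and 0.36 to 0.56 in Col-0, cannot be told from background, so the sizes of these rises are uncertain, as is the difference between them (-0.92 ± 0.42; limma adjusted p = 0.999). Without mutant sample 2 the genotype difference was -1.61 and was called (limma adjusted p = 0.0355).

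AT5G26270 had 3.71, 3.03 and 4.34 in tga1/tga4 roots under KNO3, against 4.70, 4.38 and 5.48 in Col-0. Within each number the mutant lay below Col-0 by a similar step, -0.99, -1.35 and -1.14, while the level itself differed between numbers. The difference of -1.16 ± 0.34 was not called in all 12 samples (limma adjusted p = 1, or 0.0942 with the block) and was called with the block in the 6 KNO3 samples alone (limma adjusted p = 0.0454).

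AT5G35940, of the jacalin lectin family of carbohydrate-binding proteins, had 3.21, 3.32 and 3.39 in tga1/tga4 roots under KNO3, against 4.13, 4.21 and 4.64 in Col-0. Its difference was -1.02 ± 0.17 (SE, n = 3 each; limma adjusted p = 0.372). With the block the adjusted p was 0.0502 by limma, just over the threshold. Under KCl it had 2.62, 3.12 and 2.53 in tga1/tga4 and 3.72, 3.82 and 3.60 in Col-0, a difference of -0.96, called with the block only (limma adjusted p = 0.335 without it and 0.0386 with it). The size was thus close under both salts, and the test of the difference between them gave -0.07 ± 0.24 (limma adjusted p = 0.999).

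The other genes with a lower mean in the mutant differed by 0.80 or less. AT5G06630, an extensin of the cell wall, had 4.82, 4.39 and 4.63 in tga1/tga4 and 5.55, 5.39 and 5.28 in Col-0 (-0.80 ± 0.23). AT2G28440 had 2.20, 2.01 and 1.47 in tga1/tga4 and 2.84, 2.78 and 2.45 in Col-0 (-0.80 ± 0.25). QQS, an orphan gene known from its effect on leaf starch, had 0.68, 0.59 and 1.16 in tga1/tga4 and 1.55, 1.75 and 1.38 in Col-0 (-0.75 ± 0.16). The QQS values all lay under the sample medians, whereas those of the extensin lay well above.

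AT5G15950, an S-adenosylmethionine decarboxylase of polyamine synthesis, averaged 5.55 ± 0.21 in tga1/tga4 roots under KNO3 and 6.12 ± 0.11 in Col-0 (SD, n = 3 each), a difference of -0.57 ± 0.16 (SE; limma adjusted p = 1). Under KCl its difference was -0.97, which passed with the block only (limma adjusted p = 0.231 without it and 0.046 with it). AT5G10770, an aspartyl protease gene, stood at -0.69 ± 0.22, AT1G20070 at -0.65 ± 0.18 and AT5G64550 at -0.55 ± 0.16. For AT5G10770 the pair numbered 1 hardly differed, at 2.69 in tga1/tga4 and 2.73 in Col-0.

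The genes with a higher mean in tga1/tga4 differed by at most 0.74. AT2G45670, which encodes an acyltransferase of phospholipid synthesis, had 3.92, 3.95 and 3.71 in tga1/tga4 roots under KNO3, against 3.28, 3.26 and 3.12 in Col-0 (0.64 ± 0.15; limma adjusted p = 1). Under KCl it stood 0.76 higher in the mutant (limma adjusted p = 0.393), with values of 3.83, 4.08 and 3.81 in tga1/tga4 and 3.11, 3.44 and 2.90 in Col-0. In both salts the mutant samples of this gene lay above every Col-0 sample.

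LSM1A, a subunit of the complex that activates removal of the mRNA cap, had 5.79, 5.85 and 5.73 in tga1/tga4 roots under KNO3, against 5.53, 5.32 and 5.16 in Col-0 (0.45 ± 0.14). CPNIFS, the chloroplast cysteine desulfurase that supplies sulfur for iron-sulfur clusters, had 3.93, 3.72 and 3.70 in tga1/tga4 and 3.43, 3.48 and 3.06 in Col-0 (0.46 ± 0.14). Under KCl LSM1A stood at 0.07 and CPNIFS at -0.05. AT3G46710, an NB-ARC gene of the disease resistance class, stood at 0.58 ± 0.19 under KNO3 and 0.67 under KCl.

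The remaining 6 were AT5G58720 (0.74 ± 0.23), the F-box gene AT2G27310 (0.72 ± 0.24), the protein kinase gene AT5G18500 (0.56 ± 0.16), the pentatricopeptide repeat gene AT1G11630 (0.51 ± 0.16), AT5G24340 (0.49 ± 0.12) and AT1G70420 (0.46 ± 0.13). Their differences under KCl lay between -0.24 and 0.20. All 10 had an adjusted p of 1 under KNO3 (limma), and from 0.36 to 0.853 with the block. AT1G70420 rose with nitrate in tga1/tga4 by 0.95 (limma adjusted p = 0.000705), against a change of 0.27 in Col-0 (limma adjusted p = 0.324), and the test of this difference did not pass (0.68 ± 0.18; limma adjusted p = 0.999). All values of AT1G70420 lay under the sample medians.

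**Figure D3:**
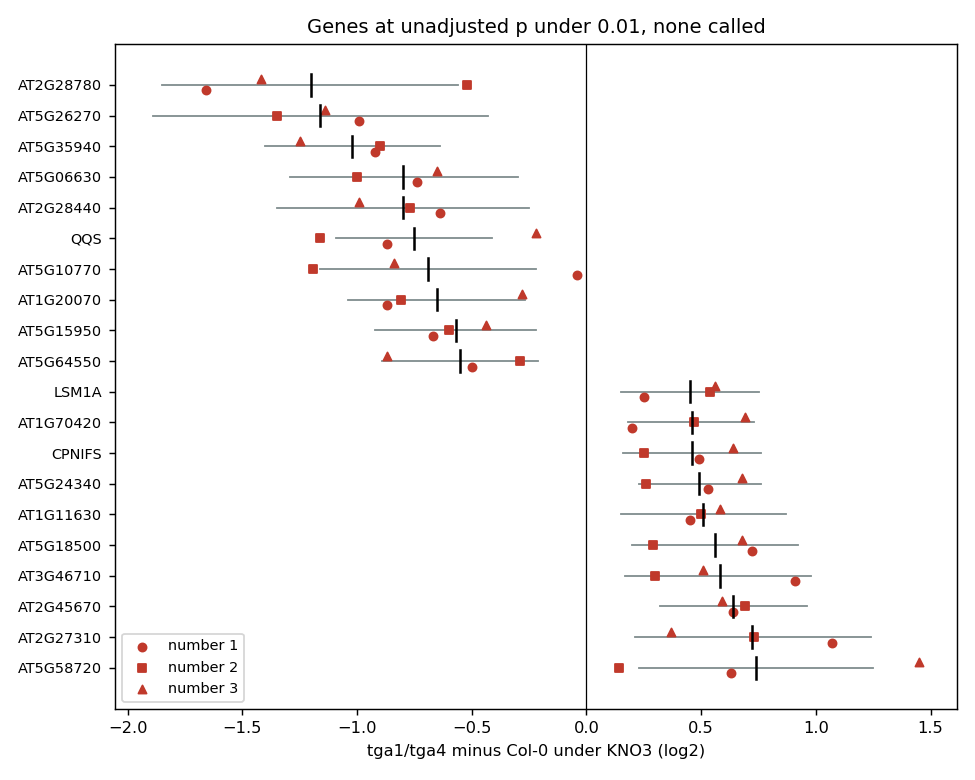
Difference under KNO3 (tga1/tga4 minus Col-0, log2, horizontal axis) of the 20 named genes, with a symbol for each same-numbered pair of samples, a black tick at the fitted difference and a bar for its 95% interval. Every symbol lies on the side of the fitted difference, for AT5G10770 by as little as -0.04, which follows from groups that do not overlap. None of the genes passed the adjusted threshold.

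No named gene was called for genotype under KNO3, so none that responds to nitrate was. Over the probe sets that respond to nitrate, named or not, the genotype differences centred near 0 but spread more widely than over all probe sets. Nitrate against KCl was called for 1165 probe sets (5.12%) in tga1/tga4 and 1253 (5.51%) in Col-0, and, averaged over the genotypes, for 1323 higher (5.82%) and 1237 lower (5.44%). On that average, 529 of them rose at least 2-fold and 264 fell at least 2-fold. Under KNO3 the median genotype difference was 0.030 for those that rose and -0.023 for those that fell, against -0.001 over all probe sets. Of the 529, 2 were called for genotype, 247199_at and 250463_at, against 0.0132% of all probe sets, and of the 264, 0 were (limma). Both entered the 529 through Col-0, where they rose by 2.76 and 2.63, against 0.30 and 0.25 in tga1/tga4. Their calls are therefore no result about probe sets that respond to nitrate in both genotypes. At an unadjusted p under 0.05 stood 20 of the 529 (3.78%) and 7 of the 264 (2.65%), against 1.75% of all probe sets (limma). The 95% interval lay within 2-fold for 79.4% of the 529 and 65.9% of the 264. Of the 187 that rose at least 4-fold, 0 were called (limma; 9, or 4.81%, at an unadjusted p under 0.05) and the median difference was 0.037. Nitrate response and genotype difference share the KNO3 samples, so these groups are descriptions.

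The named genes with the largest average rise were picked after their nitrate responses were known, and none was called for genotype. AT2G48080 had 7.67, 7.22 and 7.29 in tga1/tga4 roots under KNO3, against 7.67, 7.34 and 7.83 in Col-0, after rises of 6.46 in the mutant and 6.47 in Col-0 whose size is uncertain, since its KCl levels lay under the sample medians. Its genotype difference of -0.22 had a 95% interval from -0.65 to 0.22. AT4G32950, of the protein phosphatase 2C family, had 7.14, 7.27 and 8.29 in tga1/tga4 and 7.84, 7.72 and 8.36 in Col-0, a difference of -0.41 with an interval from -1.10 to 0.29. PGM (AT1G78050), a phosphoglycerate mutase, had 8.47, 8.24 and 8.74 in tga1/tga4 and 8.02, 8.55 and 8.25 in Col-0, and the samples overlap. AT5G10210 stood 0.33 higher in the mutant (95% interval 0.01 to 0.65), AT3G07350 0.19 higher and AT3G47980 0.14 higher, each with a limma adjusted p of 1.

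Among the genes with the largest average fall, AT1G64590 had 3.71, 4.44 and 5.72 in tga1/tga4 roots under KNO3, against 4.05, 4.56 and 5.01 in Col-0. The F-box gene AT2G32560 had 1.99, 2.51 and 2.35 in tga1/tga4 and 2.18, 1.80 and 1.90 in Col-0, a difference of 0.32 with a 95% interval from -0.11 to 0.75. AT1G64590 fell with nitrate by 3.55 in tga1/tga4 and by 3.45 in Col-0. In both genes the genotypes overlap.

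Of 17 nitrate regulators listed, 4 were measured under a name, and 0 were called for genotype under KNO3 (limma; 0 at an unadjusted p under 0.05, 1 with the block). The list's median difference was 0.12. For this list and those below, the share of all probe sets at an unadjusted p under 0.05 was 1.75%, or 4.8% with the block (limma). The GARP-type repressors HHO2 (AT1G68670) and HHO3 (AT1G25550), which curb nitrate uptake genes, overlapped between the genotypes. HHO2 had 5.70, 5.99 and 5.45 in tga1/tga4 and 5.79, 6.09 and 5.26 in Col-0, and HHO3 had 7.14, 6.87 and 6.51 in tga1/tga4 and 6.71, 6.83 and 6.25 in Col-0. HHO2 differed by 0.01 (95% interval -0.56 to 0.57), and HHO3 by 0.24 (-0.31 to 0.79). HHO1 (AT3G25790) had 4.34, 2.79 and 6.20 in tga1/tga4 and 3.50, 2.52 and 5.93 in Col-0, and its difference of 0.46 had an interval from -1.37 to 2.29. The spread of HHO1 followed the replicate number, and within each number the mutant was the higher. NRG2 (AT3G60320), a regulator of nitrate signalling, differed by -0.01 (95% interval -0.38 to 0.37).

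The 6-phosphogluconate dehydrogenases supply reducing power through the oxidative pentose phosphate pathway. AT1G64190 overlapped between the genotypes and had 10.27, 10.19 and 10.13 in tga1/tga4 roots under KNO3, against 10.15, 10.08 and 10.25 in Col-0 (0.04, 95% interval -0.21 to 0.28). AT5G41670, which also overlapped, had 10.35, 10.33 and 10.38 in tga1/tga4 and 10.47, 10.24 and 10.42 in Col-0 (-0.03, 95% interval -0.42 to 0.36). Both had risen with nitrate in both genotypes, AT5G41670 by 4.30 in the mutant and 4.28 in Col-0. The third member, AT3G02360, differed by -0.12. Of the 3 measured members of 8 listed, 0 were called for genotype (limma; 0 at an unadjusted p under 0.05).

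Of the listed genes for nitrate assimilation and transport, only CNX6 (AT2G43760) and NRT2.5 had a named probe set. CNX6, of the synthesis of the molybdenum cofactor that nitrate reductase uses, had 7.73, 7.58 and 7.42 in tga1/tga4 and 7.43, 7.58 and 7.25 in Col-0 (0.16, 95% interval -0.17 to 0.49). NRT2.5, a high-affinity nitrate transporter known from nitrogen-starved plants, had 2.33, 2.20 and 3.65 in tga1/tga4 and 3.14, 1.69 and 3.76 in Col-0, with an interval from -1.48 to 1.20 that excludes little. Of 12 NPF and NRT transporter genes 0 were called (limma; 0 at an unadjusted p under 0.05, 3 with the block), and their median was -0.17. The lowest of them were AT1G68570 (NPF3.1) at -0.46 and GTR1, a glucosinolate transporter, at -0.39.

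CC-type glutaredoxins are small redox enzymes of land plants known in Arabidopsis to bind TGA factors. Of 19 listed, 16 were measured and 0 were called (limma; 0 at an unadjusted p under 0.05, 1 with the block), with a median of -0.01. The lowest, AT5G11930, had 5.55, 5.38 and 6.67 in tga1/tga4 roots under KNO3, against 6.30, 5.92 and 7.23 in Col-0. Its difference of -0.62 ± 0.38 was alike in every numbered pair, but the numbers differed from each other (limma adjusted p = 1, or 0.374 with the block). The highest, AT3G62930, stood at 0.26, with a 95% interval from -0.20 to 0.71, and rose with nitrate in both genotypes, by 1.29 in tga1/tga4 and 1.10 in Col-0, at levels under the sample medians in both salts. Among 22 bZIP factors, the class to which TGA1 and TGA4 belong, 0 were called (limma; 0 at an unadjusted p under 0.05, 1 with the block) and the median was -0.07. The ends of that family were bZIP58 at 0.35 and BZIP17, which acts in stress of the endoplasmic reticulum, at -0.25.

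Extensins, structural glycoproteins of the cell wall, were the list whose median lay farthest from 0. The list was compiled with earlier results of these data known, and its members are all given. Of 17 listed, 9 were measured, 8 of them with a lower mean in tga1/tga4 and a median of -0.46, against -0.001 over all probe sets. The number called was 0 (limma). At an unadjusted p under 0.05 stood 4, or 6 with the block (limma), against 1.75% and 4.8% of all probe sets. In 4 of 9 all tga1/tga4 samples lay below Col-0, against 3.57% of all probe sets. Those 4 are also the only 4 of the 9 whose probe sets carry the suffix x_at, which marks probes that can match more than a single gene and so may count related transcripts together.

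AT4G08410 had 4.54, 4.06 and 4.32 in tga1/tga4 roots under KNO3, against 5.08, 5.03 and 5.24 in Col-0, a difference of -0.81 ± 0.27 (SE, n = 3 each). AT1G23720 had 5.69, 5.28 and 4.89 in tga1/tga4 and 5.80, 6.03 and 6.29 in Col-0 (-0.75 ± 0.28). HRGP1 had 6.37, 5.91 and 6.34 in tga1/tga4 and 6.76, 6.66 and 6.73 in Col-0 (-0.51 ± 0.20). These 3 and AT5G06630, given above, are the members whose groups did not overlap. AT1G26250, the brightest, had 9.28, 9.22 and 8.51 in tga1/tga4 and 9.56, 9.64 and 9.19 in Col-0 (-0.46 ± 0.21). AT3G54580, AT1G26240 and AT3G28550 stood at -0.45, -0.39 and -0.38, and AT2G43150 at 0.07. AT1G26240 was low in both samples numbered 3, at 1.48 in tga1/tga4 and 2.23 in Col-0, against 4.39 in tga1/tga4 and 4.54 in Col-0 for number 2.

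Under KCl the median of the same 9 extensins was 0.39, in the other direction. HRGP1 stood at 0.97 under KCl (limma adjusted p = 0.544, or 0.0337 with the block), and its difference between the salts was -1.49 (limma adjusted p = 0.957, or 0.0619 with the block). AT4G08410 stood at 0.77 under KCl, with a difference between the salts of -1.58 (limma adjusted p = 0.999, or 0.201 with the block). HRGP1 rose with nitrate in Col-0 by 1.57 (limma adjusted p = 0.000427), against a change of 0.08 in tga1/tga4 (limma adjusted p = 0.922). None of the 9 passed the test of the difference between these responses.

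Other groups of genes in the root showed no call. Of 19 expansins, which loosen cell walls, 0 were called (limma; 0 at an unadjusted p under 0.05, 3 with the block), with a median of -0.13 and EXLA3 (-0.54) and EXPA8 (-0.43) lowest. EXPA7 and EXPA18, which mark root hair cells, were measured well above the sample medians in both genotypes. EXPA7 had 4.58, 4.25 and 4.17 in tga1/tga4 and 4.58, 4.21 and 4.44 in Col-0, and EXPA18 had 5.19, 4.75 and 4.62 in tga1/tga4 and 5.28, 5.13 and 4.98 in Col-0. Their differences of -0.08 and -0.28 under KNO3 stood beside 1.07 and 1.23 under KCl, none of them called. In bulk roots, fewer cells of a type and less RNA per cell cannot be told apart.

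Of 13 jacalin lectins 0 were called (limma; 1 at an unadjusted p under 0.05, 3 with the block), and apart from AT5G35940 they ranged from -0.15 to 0.59. AT1G52060, the highest, had 5.67, 5.13 and 5.90 in tga1/tga4 and 5.38, 4.32 and 5.25 in Col-0. Of 12 auxin response genes 0 were called (limma; 1 at an unadjusted p under 0.05, 1 with the block), and WES1, which encodes an enzyme that conjugates auxin to amino acids, was the lowest, with 4.06, 4.51 and 4.66 in tga1/tga4 and 4.86, 4.94 and 5.35 in Col-0 (-0.64 ± 0.23). The lateral root regulator LBD29 stood at -0.39 ± 0.25. Of 51 glycosyltransferases 0 were called (limma; 0 at an unadjusted p under 0.05, 1 with the block), from UGT72E1 at -0.56 to UGT85A2 at 0.55. The reference genes, which are commonly used to normalise expression, ranged from -0.09 to 0.06.

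No measured marker of green tissue or of the endodermis was called. The light-harvesting genes LHCB4.1, LHCB4.2 and LHCB4.3, which mark green tissue, averaged 2.47, 1.65 and 1.45 in tga1/tga4 under KNO3 and 2.62, 1.73 and 1.38 in Col-0, near or under the sample medians. Of 69 chloroplast-encoded genes 0 were called (limma; 1 at an unadjusted p under 0.05, 5 with the block), with a median of -0.02 and rpl22 (0.67) and ndhA (0.59) highest. Of 9 endodermis genes listed, only 1 was measured under a name. It was GSO1, a receptor kinase needed for the endodermal barrier, and stood at -0.30.

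**Figure D4:**
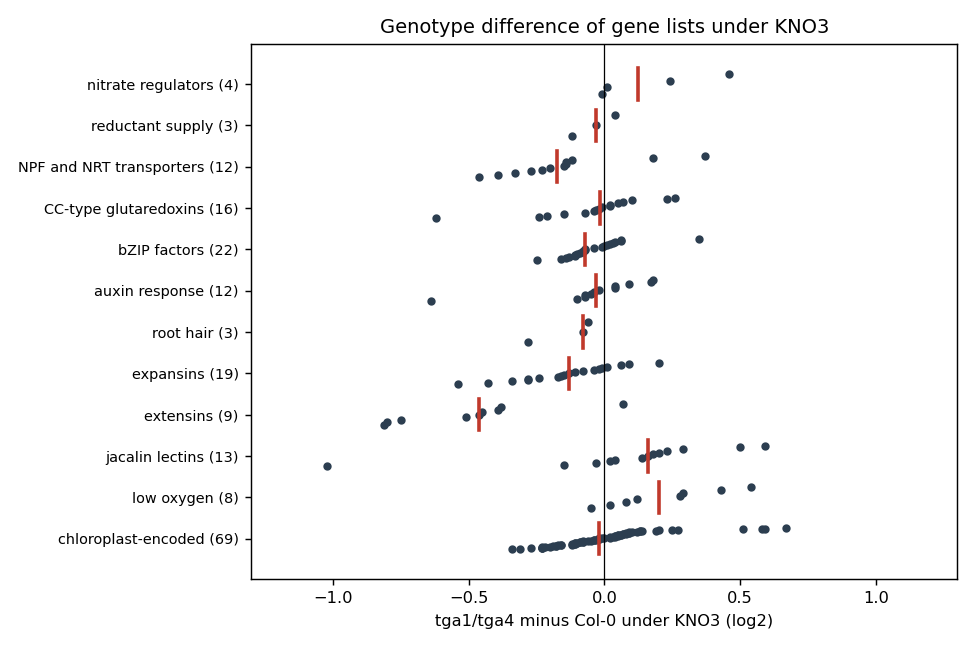
Difference under KNO3 (tga1/tga4 minus Col-0, log2, horizontal axis) of each measured member of 12 gene lists, a point per gene and a red line at each list's median, with the number of members in brackets. The median of the extensins, -0.46, lies farthest to the left, the nitrate regulators and the reductant genes lie around 0, and no member of any list was called.

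The replicate number carried more of the spread among the 6 KNO3 samples than the genotype did. Over the 11373 brighter probe sets, number accounted for 71.3% of the variance with 2 degrees of freedom and genotype for 11.7% with 1. The samples numbered 3 of both genotypes stood apart. Against numbers 1 and 2, and with genotype as a term, they differed in 1660 probe sets (7.30%), 766 higher and 894 lower (limma, adjusted p under 0.05), a comparison chosen after seeing the data. OSM34, an osmotin-like protein, had 7.49, 8.54 and 2.85 in tga1/tga4 and 7.20, 8.29 and 2.76 in Col-0, and HHO1 was 2.78 higher in number 3.

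Several lists moved with the number. Of 8 measured genes of the low-oxygen response, 6 were lower in number 3, against 3.93% of all probe sets. Of 12 NPF and NRT transporters 6 were higher and 1 was lower, and of 19 expansins 5 were higher and 3 lower, against 3.37% of all probe sets higher. The low-oxygen list was compiled with earlier results of these data known. The median difference of its members by genotype was 0.20, with 0 called (limma; 1 at an unadjusted p under 0.05, 3 with the block). The highest was AT5G10040, with 8.21, 8.62 and 7.32 in tga1/tga4 and 8.16, 8.02 and 6.35 in Col-0. HRA1 (AT3G10040), a regulator that restrains the low-oxygen response, had 6.55, 6.74 and 6.46 in tga1/tga4 and 6.13, 6.24 and 6.08 in Col-0 (0.43 ± 0.19; limma adjusted p = 1). Without number 3 in both KNO3 groups the same 3 probe sets were called for genotype as in all samples.

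**Figure D5:**
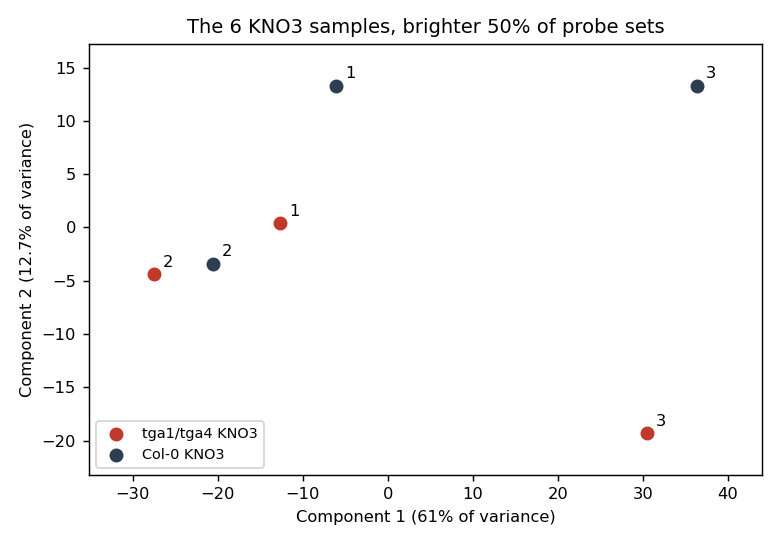
The 6 KNO3 samples on the first component (horizontal axis, 61% of variance over the brighter 50% of probe sets) and the second (vertical axis, 12.7%), red for tga1/tga4 and dark blue for Col-0, with the replicate number beside each point. The samples numbered 3 lie at 30.5 (tga1/tga4) and 36.4 (Col-0) on the first component, and the other 4 between -27.5 and -6.1.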

How the data were processed

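Per the labels, biotinylated cRNA from total root RNA was hybridised to Affymetrix arrays. The deposited values are log2 levels, a single value for each probe set in each sample. How the authors corrected background, normalized and summarised the probes is not given in the sources used here. That the scale is log2 was checked on the hybridisation controls, whose levels rose by 0.964 per doubling of nominal concentration. Values were used as deposited, and sample medians were 2.21 to 2.41. Of 22810 probe sets, 64 controls were left out. Genes came from the supplied platform table, and 13436 single-gene probe sets matched the TAIR10.1 RefSeq gene table, used for names only. For list members with more than a single probe set, the brightest was taken.

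Group means of all 12 samples were estimated in limma 3.58.1, under R 4.3.3 (eBayes without trend, two-sided, Benjamini-Hochberg over 22746 probe sets, adjusted p under 0.05). The fit was tested on simulated data. No set test was run, and lists are described by counts and medians. Groups of 3 samples limit the precision.

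Same-numbered samples deviated from their group means together within a salt, with correlations over the brighter 50% of probe sets of 0.28, 0.64 and 0.73 for numbers 1, 2 and 3 under KNO3 and 0.53, 0.34 and 0.50 under KCl. Under KNO3, tga1/tga4 number 1 with Col-0 number 2 gave 0.21, and tga1/tga4 number 2 with Col-0 number 1 gave 0.26. These are close to the 0.28 of number 1, so the values do not set number 1 apart from number 2 as a pair. Same-numbered samples are also shown as pairs, but the main fit did not use the pairing. The fit with salt by number as a block is given beside it where it changes a call or a count by over 1.5 times.

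The rule named the called probe sets, then, with fewer than 10 named genes called, the 10 highest and 10 lowest single-gene differences at an unadjusted p under 0.01, and up to 2 members of each list without a call. All extensins, the short nitrate and root hair lists, the genes most changed by nitrate and those set apart in number 3 go beyond it and were chosen after their values were seen. The comparison, the lists and the tests were chosen with earlier results of these data known. Promoter motifs were not analysed here.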

Additional observations from a re-analysis of the deposited data

Results flagged for a closer look

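The genotype difference of probe set 250463_at depended on the salt. It was -4.43 under KNO3 and -2.05 under KCl (tga1/tga4 minus Col-0, log2), and the test of the difference itself gave -2.38 ± 0.23 (SE, n = 3 per group; limma adjusted p = 0.00731, or 0.00515 with the replicate block). The mutant values were low under both salts, at 0.76 to 1.05 under KNO3 and 0.43 to 0.84 under KCl, against Col-0 levels of 5.11 to 5.50 under KNO3 and 2.45 to 2.93 under KCl. The mutant values are not shown to exceed background, and whether that limits the size of either difference was not tested. Whether this probe set measures TGA1 or TGA4 was not tested either. The test did not pass without tga1/tga4 KNO3 replicate 1 or Col-0 KCl replicate 3.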

How the results depend on the processing

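The count of 3 called probe sets under KNO3 became 5 with the replicate block in the 6 KNO3 samples alone, which adds 252534_at and AT5G26270. It was 4 with the replicate block in 12 samples, with the number as a random block (consensus correlation 0.283) and with array weights. Leaving out a sample, or a number in both KNO3 groups, gave 2 to 4. Under KCl the count of 4 became 18 with the replicate block (10 higher, 8 lower), and ranged from 2 to 18 without a sample: 18 without tga1/tga4 KCl replicate 1, and 2 without tga1/tga4 KCl replicate 3 or Col-0 KCl replicate 2. The count of 1 for the difference between salts became 2 with the replicate block and 0 to 2 without a sample: 0 without tga1/tga4 KNO3 replicate 1 or Col-0 KCl replicate 3, and 2 without Col-0 KNO3 replicate 2 or Col-0 KCl replicate 1. The cause of these moves was not tested. Probe sets 247199_at and 250463_at were called under all alternatives run, at -6.15 to -5.84 and -4.52 to -4.33. Under KNO3 the block changed no call of a named gene in the 12-sample fit. Besides the values in the report, 252534_at was called with the random block (limma adjusted p = 0.0441), with array weights (0.0355), with the block in 6 samples (0.0231) and without tga1/tga4 KNO3 replicate 3 (0.0387). Probe set 260624_at was called without Col-0 KNO3 replicate 2 (-1.35, limma adjusted p = 0.00299) and without number 2 in both KNO3 groups (-1.32, 0.0293). Small differences that were never called changed sign. With array weights AT3G60320 stood at 0.17, AT1G68670 at -0.04, TRY at 0.02 and AT3G62930 at -0.03. With quantile normalization AT1G68670 was 0.00 and AT5G41670 0.02, and with centred medians AT1G68670 was -0.02. Without single samples or numbers the ranges were -0.21 to 0.21 for AT3G60320, -0.22 to 0.19 for AT1G68670, -0.42 to 1.44 for AT3G25790, -0.72 to 0.31 for NRT2.5, -0.01 to 0.11 for AT1G64190, -0.10 to 0.02 for AT5G41670, -0.20 to 0.02 for EXPA7, -0.20 to 0.06 for TRY, -0.05 to 0.56 for AT3G62930, -1.11 to 0.52 for AT1G26240, -0.05 to 0.20 for AT2G43150 and -0.04 to 0.91 for AT5G10040. No list gained a called member with the block or with all probe sets.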
